A study of Caenorhabditis elegans with 2 samples.

Results

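The genes described here are 40 protein-coding genes of Caenorhabditis elegans that act in meiotic chromosome pairing, synapsis and recombination, out of 19973 protein-coding genes on the nuclear chromosomes. They were listed by gene name and known role. The data are chromatin immunoprecipitation sequencing (ChIP-seq) of the zinc finger protein ZIM-3, from whole young adults of strain OP581. Its genotype is unc-119(tm4063) III with the transgene wgIs581, from which ZIM-3 is expressed with GFP-FLAG at its C-terminus, and the immunoprecipitation used an anti-GFP antibody. The animals were of mixed sex, recorded as pooled males and females, and were collected 54.5 h after synchronisation as starved L1 larvae following bleaching. The 2 biological replicates form 1 group, share the unc-119 mutation and the transgene, and were not set against an untagged strain or another condition here. ZIM-3 is known as the pairing centre protein of chromosomes I and IV.

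In worm meiosis each chromosome pairs with its homologue through a pairing centre, a region near one end that is bound by a zinc finger protein and tethered to the nuclear envelope. Paired homologues are then joined by the synaptonemal complex, which is built between chromosome axes made of cohesin and HORMA domain proteins. SPO-11 makes programmed double-strand breaks, the ends are resected and invade the homologue, and a few of the resulting intermediates are designated as crossovers that hold the homologues together until they separate.

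Each gene was scored by the highest region whose summit lay inside the gene or within 1 kb of either end. Height means the deposited signal of a region, and rank 1 is the highest region of a list. The lists are capped at 30000 regions each, peaks and background together, for the pooled reads and for each replicate. A shorter list of 906 peaks passed the authors' irreproducible discovery rate (IDR) procedure, which uses both replicates to select regions. Signal scales differ between the lists, so the ranks are what can be set side by side.

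A region was found near most of the meiotic genes, at low to middling height, and near most other genes too. The lists include background, so a region is not by itself a called peak. The deposited −log10 of the q-value, which is lower where the evidence is weaker, was 1.81 at the highest pooled region of brd-1. It was 0.97 at brc-1, 0.85 at syp-4 and 0.38 at zim-3, and lower still at every other member with a pooled region. In the pooled list 33 of the 40 members (82.5%) had a region, against 71.1% of the 19933 other protein-coding genes. In replicate 1 the members' count was 31 (77.5%), against 71.3% of other genes. In replicate 2 it was 34 (85%), against 70.7%. In all 3 lists 25 members (62.5%) had a region, against 58.5%. Only brd-1 had an IDR peak, which is 1 member of 40 (2.5%), against 5.39% of other genes. Counted inside gene bodies alone, the IDR shares were 2.5% of members and 2.11% of other genes. The members are longer genes by the median, 2717.5 bp against 2026 bp. The windows searched, added up gene by gene with overlapping sequence counted more than once, came to 216.87 kb for the 40 members and 104169 kb for the 19933 other genes. Whether gene length accounts for the shares was not tested. Per kilobase of these summed windows the members held 0.36 pooled regions, against 0.34 around other genes. A region was counted once for each gene it lay near, so these are not densities over distinct sequence. No test was made of these shares, because 1 group without a control gives no contrast between conditions and the members are not replicates of one another.

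The sequences that follow show what lay under 3 of the 4 highest members and beside him-5, which like brd-1 has a small RNA gene at its region. They were read from the RefSeq genome (assembly WBcel235, the same build as the ce11 lists). The first pair are at the brd-1 peaks, at chrIII:6887708-6887820 and chrIII:6888590-6888714, given on the minus strand, which is the strand of brd-1. Capitals mark annotated tRNA genes in its introns, for tRNA-Lys and tRNA-Gly. A further tRNA gene within brd-1, 627 to 698 bp from the brd-1 start on the opposite strand, lies outside these sequences. The brc-1 sequence is centred on the region upstream of that gene, at chrIII:3863095-3863195 on the minus strand, and the zim-3 sequence on the region in its own intron, at chrIV:10559612-10559712 on the plus strand. In both of these the capitals mark the summit and 10 bases on each side. The him-5 sequence, at chrV:14092519-14092671 on the plus strand, runs from near the summit downstream of him-5 through the small nucleolar RNA gene smy-3, in capitals.
brd-1 tRNA-Lys: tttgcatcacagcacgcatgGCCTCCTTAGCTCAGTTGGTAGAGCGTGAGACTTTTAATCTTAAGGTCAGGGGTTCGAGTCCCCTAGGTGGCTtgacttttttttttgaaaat
brd-1 tRNA-Gly: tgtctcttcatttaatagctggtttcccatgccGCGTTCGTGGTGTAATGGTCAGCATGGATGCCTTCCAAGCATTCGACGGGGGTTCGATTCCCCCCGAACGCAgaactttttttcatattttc
brc-1 upstream: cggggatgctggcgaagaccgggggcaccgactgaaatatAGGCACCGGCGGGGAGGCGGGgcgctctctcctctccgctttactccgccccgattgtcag
zim-3 intron: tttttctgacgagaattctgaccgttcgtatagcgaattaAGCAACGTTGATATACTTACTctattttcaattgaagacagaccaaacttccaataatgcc
him-5 downstream: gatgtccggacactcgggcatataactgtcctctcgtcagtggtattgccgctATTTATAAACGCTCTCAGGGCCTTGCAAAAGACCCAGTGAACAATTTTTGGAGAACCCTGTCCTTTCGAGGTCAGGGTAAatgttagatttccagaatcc

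Both brd-1 sequences hold the motif GTTCGANTC, the core of the B box of tRNA genes, which is an internal promoter element read by RNA polymerase III. It starts at position 53 of the 73-base tRNA-Lys gene and at position 52 of the 72-base tRNA-Gly gene, counted from 1 at the 5′ end. On either strand of the 201 bp around the summit, the motif was present in 2 of the 76 pooled regions near members (2.63%), both at brd-1. It was present in 346 of all 30000 pooled regions (1.15%), which include 162 of the 419 regions with a summit within 100 bp of a tRNA gene (38.7%) and 0.622% of the regions farther away. The brc-1 window is GC-rich, at 67.3%, and the zim-3 window is not, at 35.6%. A match to these letters is a description of the sequence and not evidence of a binding site.

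The heights of the members lay near those of other genes. Among genes with a region, the median highest pooled signal was 76.5 for members (interquartile range 67.7 to 85.7, highest 171.7), against 78.2 for other genes (64.2 to 98.9, highest 818.0). The median pooled rank was 9992 for members, against 9208.5 for other genes. Of the 33 members with a region, 13 lay above the median of the other genes and 4 above their upper quartile. Those 4, brd-1, brc-1, syp-4 and zim-3, were also the only members among the 5000 highest pooled regions, which is 10% of the 40, against 22.7% of other genes. This gap depends on the rank chosen: him-3 (rank 5014) and htp-3 (rank 5083) lie just past it, and at rank 5140 the shares were 15% of members and 23.2% of other genes. Among the 10000 highest regions they were 42.5% of members and 37.52% of other genes.

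The members are described next by role. With 4 to 8 genes in a group, a count with a region is to be read against the 71.1% of other protein-coding genes that have one in the pooled list and the 58.5% that have one in all 3 lists, and no group was tested.

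**Figure D1:**
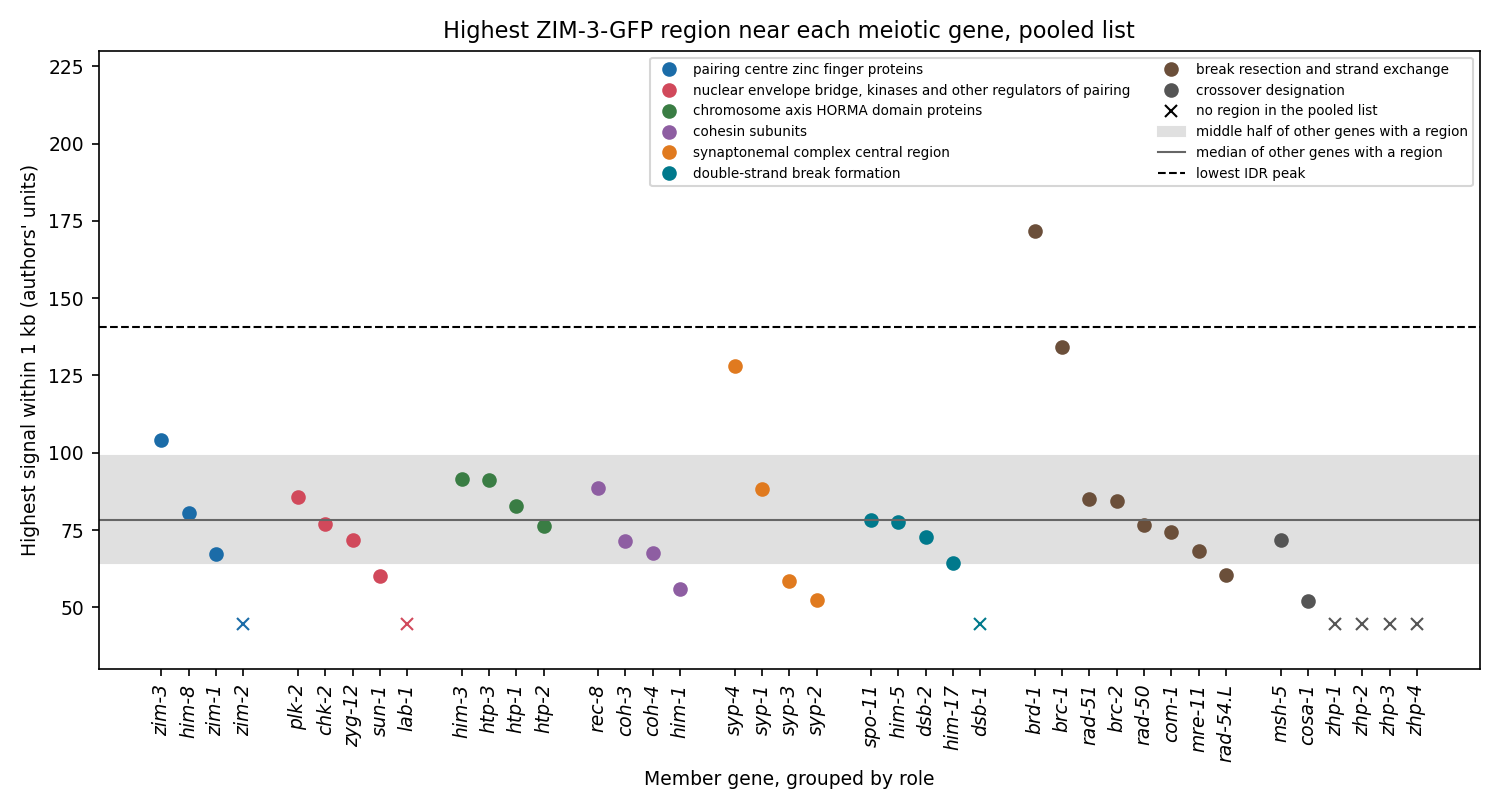
Highest pooled signal within 1 kb of each member (vertical, in the authors' units), grouped by role; crosses mark members without a pooled region, the grey band is the interquartile range of other genes with a region, the solid line is their median (78.2) and the dashed line is the lowest IDR peak (140.7). brd-1 at 171.7 is alone above the dashed line, and brc-1, syp-4 and zim-3 are the other members above the band.

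**Figure D2:**
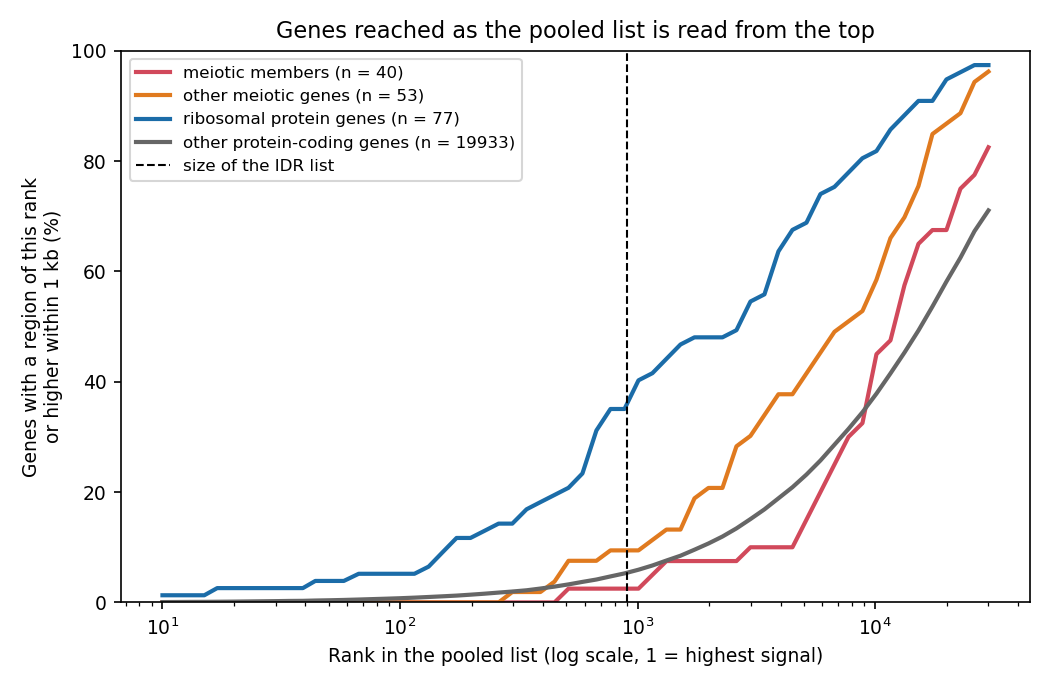
Share of members, of other protein-coding genes and of 2 further gene lists (53 other meiotic genes and 77 ribosomal protein genes) that have a region within 1 kb, against the number of highest pooled regions counted. The line of the members is at 10% at rank 4488, against 20.9% of other protein-coding genes, and at 15% at rank 5140, against 23.2%. It is at 45% at rank 10131, against 37.8%, and at 82.5% at the end of the list, against 71.1%.

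The pairing centre proteins are encoded by neighbouring genes on chromosome IV, and zim-3 was the highest of them. ZIM-1 serves chromosomes II and III, ZIM-2 chromosome V, ZIM-3 chromosomes I and IV, and HIM-8 the X chromosome. zim-3 (IV 10558715 to 10561429, plus strand) had 104.2 in the pooled list at rank 2902, 78.6 in replicate 1 at rank 3010 and 21.2 in replicate 2 at rank 14078. The summit was in an intron, 947 bp from the annotated start, and replicate 2 ranked it far lower than replicate 1. The strain also carries a tagged copy of zim-3 in the transgene, whose part in this region was not tested.

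him-8 (IV 10561905 to 10563974, plus strand) had 80.6 in the pooled list at rank 8237 and 34.3 in replicate 2 at rank 2486, in a coding exon, and no region in replicate 1. A lower pooled region of him-8, at rank 20916, lay 85 bp upstream of its start. zim-1 (IV 10547086 to 10555513, plus strand) had 67.3 at rank 15090 in the pooled list and 58.8 at rank 9570 in replicate 1, both in an intron. In replicate 2 zim-1 had 17.9 at rank 21342, from a summit within zim-2, and this same region is the highest of zim-2 (IV 10555247 to 10558225). zim-2 had no region in the pooled list or in replicate 1. None of the 4 genes had an IDR peak, and the replicates placed the highest of them differently.

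**Figure D3:**
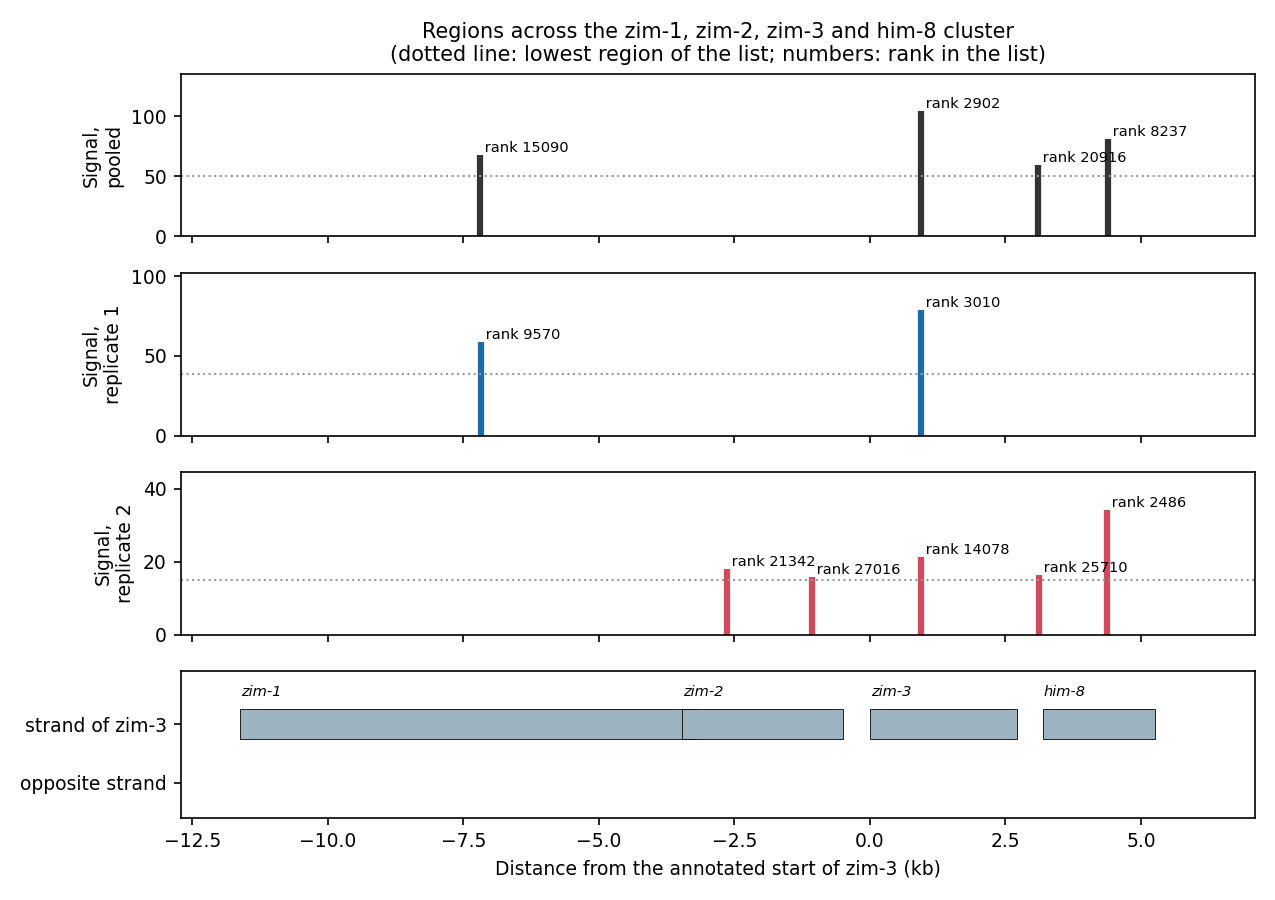
Regions across the zim-1, zim-2, zim-3 and him-8 cluster in the pooled list and in each replicate, as the signal at each summit against the distance from the zim-3 start, with gene bodies below. The region in zim-3 is present in all 3 lists (ranks 2902, 3010 and 14078), whereas the highest one in him-8 is absent from replicate 1.

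Of the 5 genes for the nuclear envelope bridge, kinases and regulators of pairing, 4 had a pooled region, with a median highest signal of 74.4 and a range of 60.2 to 85.7. plk-2 on chromosome I (2755540 to 2758204, minus strand) encodes a polo-like kinase that is recruited to pairing centres. It had 85.7 at rank 6501 in the pooled list and 80.0 at rank 2787 in replicate 1, from a summit 400 bp downstream of the gene. Its highest region in replicate 2 was 40.9 at rank 1118, at a summit 197 bp downstream. The pooled list holds a region at each of these positions, the second at rank 14522, and a lower one 27 bp from the start of the gene. chk-2, for the kinase that starts pairing and break formation, followed at 77.0, with 59.3 in replicate 1 at the same place, in its 3′ UTR. Its highest region in replicate 2, at 18.9, was at the other end of the gene, 959 bp upstream. zyg-12, for the outer nuclear envelope partner that links chromosomes to dynein, had 71.9, and sun-1, for the inner envelope partner, had 60.2 with no region in replicate 2. lab-1, which protects cohesion on the long arms of chromosomes, had no region in any list.

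All 4 HORMA domain genes, which encode the axis proteins, had regions in all 3 lists, against 58.5% of other protein-coding genes. Their pooled values lay between 76.4 and 91.5. him-3 (IV 6977508 to 6978765, plus strand) had 91.5 at rank 5014 in the pooled list, 66.7 at rank 5940 in replicate 1 and 18.7 at rank 19365 in replicate 2. That summit is 937 bp upstream of him-3, inside a coding exon of pgl-1, a P granule gene. htp-3 (4827072 to 4829791 of chromosome I, plus strand), whose product recruits the other axis proteins, had 91.2 at rank 5083 in the pooled list and 64.9 at rank 6605 in replicate 1, in a coding exon. In replicate 2 its highest region, 19.7 at rank 17026, lay more than 200 bp from that summit and beside a lower pooled region of the gene, at rank 26185. htp-1 (IV 5390189 to 5391557, minus strand), which holds back synapsis between the wrong partners, had 82.7 at rank 7467 in the pooled list and 71.3 at rank 4536 in replicate 1, 42 bp downstream of the gene. Its highest region in replicate 2, 32.3 at rank 3161, was 276 bp downstream. The near-identical axis gene htp-2 had 76.4, at a summit closer to puf-11. The members of this group thus had highest regions of similar pooled height within 1 kb. Of these summits only that of him-3 had a replicate 2 summit within 200 bp. Inside the gene bodies alone the heights were not similar. There htp-3 kept 91.2, htp-1 had 67.1, him-3 had 50.6, near the lowest pooled region of 50.5, and htp-2 had no pooled region.

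All 4 cohesin genes had a pooled region, against 71.1% of other protein-coding genes, with values between 56.1 and 88.6. rec-8 (IV 13349122 to 13353193, minus strand) encodes the meiotic kleisin subunit. It had 88.6 at rank 5688 in the pooled list and 59.2 at rank 9381 in replicate 1, in a coding exon. Replicate 2 had 2 regions within 200 bp of that summit, at ranks 7595 and 20187. Its highest region in replicate 2, 27.2 at rank 6297, was 779 bp upstream of the gene, inside a coding exon of mex-5. The pooled list (rank 6782) and replicate 1 (rank 13605) had a region there as well. A region was therefore found at both positions in all 3 lists, the upstream one within mex-5. The other meiotic kleisins, coh-3 and coh-4, had 71.6 and 67.7 in the pooled list. him-1, for the SMC1 subunit, had 56.1 in the pooled list, no region in replicate 1 and 35.5 at rank 2123 in replicate 2. In this group 2 of the 4 genes, coh-4 and him-1, had no region in replicate 1, and all 4 had one in replicate 2.

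The genes of the synaptonemal complex central region lay between 52.4 and 127.9 in the pooled list. syp-4 (6847511 to 6849923 of chromosome I, plus strand) had 127.9 at rank 1258 in the pooled list, 92.8 at rank 1525 in replicate 1 and 27.4 at rank 6129 in replicate 2. All of these summits were upstream of the gene, the pooled one by 250 bp, and inside the small nuclear RNA gene H27M09.6. syp-1 (V 16404274 to 16407701, plus strand) had 88.3 at rank 5785 in the pooled list, 68.0 at rank 5535 in replicate 1 and 26.3 at rank 7160 in replicate 2. The pooled summit was in a coding exon 3301 bp from the annotated start, and the replicate 2 summit in the 3′ UTR, 3392 bp from it. syp-1 thus had its region near the end of the gene in the 3 lists. syp-3 had 58.4 and syp-2 had 52.4, near the lowest pooled region of 50.5, and the syp-2 summit was closer to C24G6.8.

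The break formation genes gave a narrow range of pooled values, 64.3 to 78.2 in the 4 of 5 that had a region. spo-11 (IV 11123133 to 11124862, minus strand), for the enzyme that cuts the DNA, had 78.2 at rank 9210 in the pooled list and 62.9 at rank 7474 in replicate 1. Its summit was 529 bp downstream, inside a coding exon of enpl-1, and the highest region in replicate 2, 18.8 at rank 19164, lay in a coding exon of spo-11 beside a lower pooled region (rank 26957). A further pooled region of spo-11, at rank 18607, had its summit 23 bp from the start of the gene, and replicate 1 had one there at rank 22901. him-5 (V 14090426 to 14092454, plus strand), needed for breaks on the X chromosome, had 77.7 at rank 9451 in the pooled list and 80.0 at rank 2778 in replicate 1. This summit was 85 bp downstream of him-5 and 33 bp from smy-3, at the sequence printed above. In replicate 2 the highest region of him-5, 22.6 at rank 11706, was on the far side of smy-3, where the pooled list (rank 16926) and replicate 1 (rank 24089) had lower regions. dsb-2, which promotes break formation, had 72.7, and him-17, for a chromatin protein, had 64.3, with the him-17 summit closer to noca-1. dsb-1, the partner of dsb-2, had its highest region, 19.7, in replicate 2 and none in the other lists. The highest pooled summits of this group were thus away from gene starts, while spo-11 and him-17 also had lower pooled regions 23 and 320 bp from theirs.

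The 8 genes of resection and strand exchange all had a pooled region, against 71.1% of other protein-coding genes. They included the 2 highest members, the pair brd-1 and brc-1, whose products form the worm counterpart of the BRCA1-BARD1 ubiquitin ligase. brd-1 (III 6885207 to 6889504, minus strand) had 171.7 at rank 487 in the pooled list, 138.4 at rank 377 in replicate 1 and 27.2 at rank 6269 in replicate 2 at the tRNA-Lys gene. At the tRNA-Gly gene it had 145.2 at rank 821 in the pooled list, 111.8 at rank 765 in replicate 1 and 45.3 at rank 772 in replicate 2. Both are IDR peaks, and the tRNA-Lys one was much lower in the ranks of replicate 2. The pooled summits lay inside the tRNA-Lys gene (6887784) and 13 bp from the tRNA-Gly gene (6888694).

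**Figure D4:**
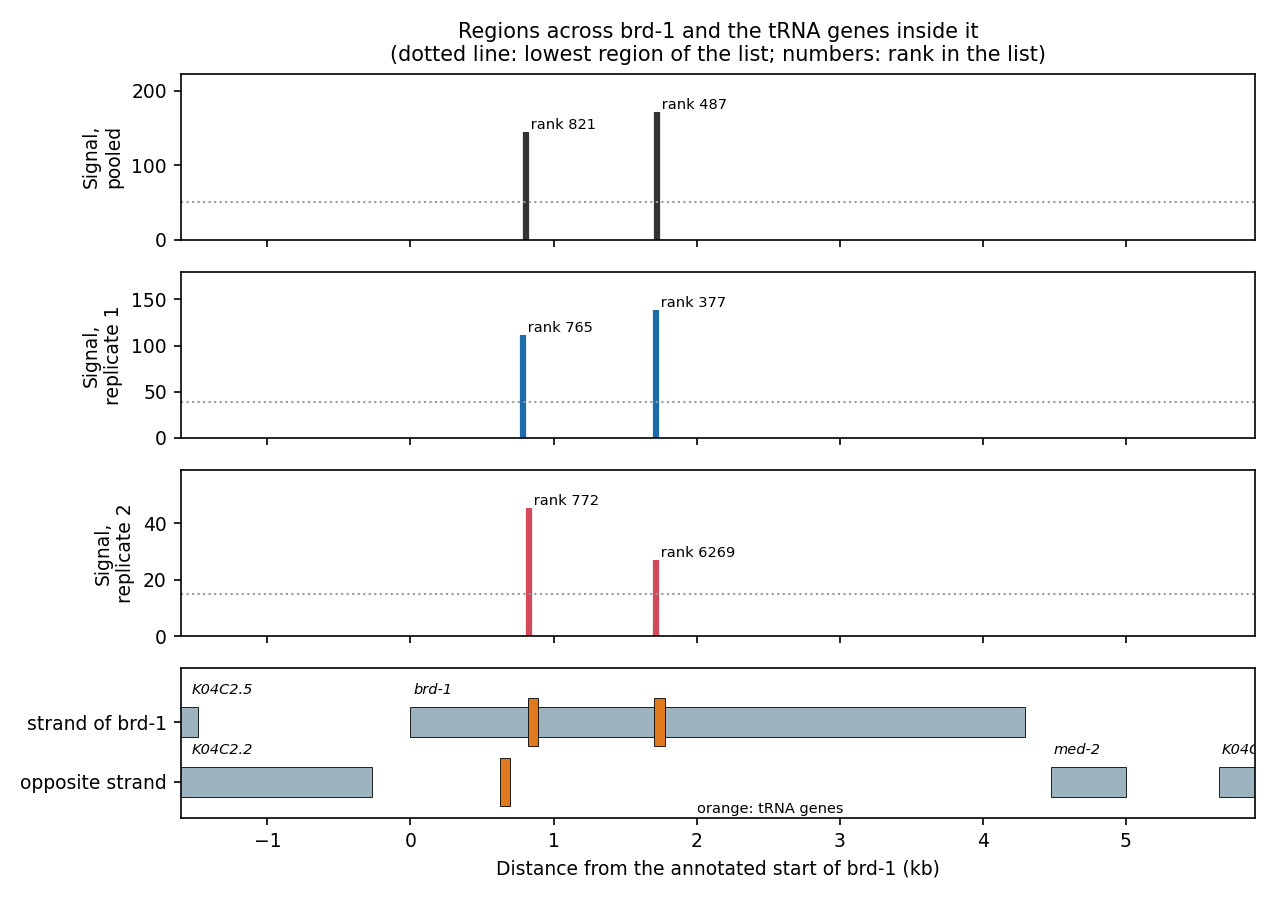
Regions across brd-1 in the pooled list and in each replicate, as the signal at each summit against the distance from the brd-1 start, with genes below and tRNA genes in orange. The 2 regions of each list lie at or within 37 bp of tRNA genes in brd-1 introns, and their order is reversed in replicate 2 (ranks 772 and 6269).

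brc-1 (III 3853102 to 3862968, minus strand) had 134.1 at rank 1079 in the pooled list, 94.9 at rank 1401 in replicate 1 and 33.2 at rank 2855 in replicate 2. The summit was 177 bp upstream of the gene, at the GC-rich sequence printed above, with a matching summit in both replicates. This is the highest member with no tRNA, snoRNA or snRNA gene within 1 kb, and it lies just under the lowest IDR peak (140.7). rad-51 (IV 10281634 to 10284244, minus strand), for the strand exchange recombinase, had 84.9 at rank 6720 in the pooled list and 68.8 at rank 5286 in replicate 1, at a summit 49 bp downstream and closer to thk-1. Its highest region in replicate 2, 26.9 at rank 6499, was 460 bp upstream of the gene. The pooled list (78.7 at rank 9024) and replicate 1 (rank 11373) also had a region upstream, so this one was found in all 3 lists. brc-2 (III 6900568 to 6903106, minus strand), the BRCA2 counterpart that loads RAD-51, had 84.4 at rank 6899 in the pooled list and 72.5 at rank 4222 in replicate 1, in an intron. Its region in replicate 2, 24.97 at rank 8538, lay nearer the start, beside lower regions of the pooled list (rank 18995) and of replicate 1 (rank 25187). The remaining genes were lower. In the pooled list rad-50 had 76.5, com-1 had 74.4 with no region in replicate 2, mre-11 had 68.3 and rad-54.L had 60.5 with none in replicate 1. RAD-50, MRE-11 and COM-1 act in end resection, and rad-54.L encodes a helper of strand exchange.

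Of the 6 crossover designation genes 2 had a pooled region, against 71.1% of other protein-coding genes. In replicate 1 the count was 4, against 71.3% of other genes, and in replicate 2 it was also 4, against 70.7%. These were not the same 4 genes. msh-5, for a MutS homologue that stabilises crossover intermediates, had 71.9, and cosa-1, which marks designated crossovers, had its region at rank 28363, with a summit inside an intron of cox-6B and no region in replicate 2. Among the RING finger genes of this group, zhp-4 had no region in any list, zhp-1 had a highest value of 19.4 in replicate 2 and no region elsewhere, and zhp-2 had 42.9 in replicate 1 and 22.2 in replicate 2. zhp-3 (8529376 to 8531342 of chromosome I, minus strand), which marks crossover sites, had 98.0 at rank 1222 in replicate 1 at a summit in an intron 20 bp from a tRNA gene. In replicate 2 it had 18.2 at rank 20724 at another position, and the pooled list had none. The rank-1222 region was therefore seen in 1 library.

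The 7 members without a pooled region were zim-2, lab-1, dsb-1, zhp-1, zhp-2, zhp-3 and zhp-4. Of these, lab-1 and zhp-4 were the 2 without a region in any list. On chromosome I, 6 of the 10 members had a pooled region, against 76.5% of other genes there. On chromosome IV the figure was 10 of 12, against 65.4% of other genes there. ZIM-3 is known to bind the pairing centres of these chromosomes. The members' share was below that of other genes on I and above it on IV, and a link to pairing centres was not tested. The remaining members with a pooled region were 2 of 2 on chromosome II, 5 of 5 on III and 10 of 11 on V, against 72.6%, 79.0% and 64.6% of other genes on those chromosomes. No member is on X.

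The highest pooled regions of the members lay mostly inside the genes, and 16 of the 33 had a match in replicate 2. They were inside the gene in 21 of the 33 (63.6%), against 54.04% of other genes with a region: 14 in a coding exon, 6 in an intron and 1 in a 3′ UTR. The remaining 12 were outside it, 6 upstream and 6 downstream. The highest summit was within 500 bp of the annotated start for 2 members (6.06%), brc-1 and syp-4, against 23.5% of other genes. With lower regions counted too, 10 of the 40 members (25%) had a pooled summit that near the start, against 30.4% of other genes. Within 1 kb of the start the shares were 60% of members (24) and 47.6% of other genes, with medians of 63.4 and 71.4. The direction of the difference in regions near starts thus depended on the distance used. Another gene was nearer to the summit for 7 members, so that for 26 (78.8%) the nearest gene was the member itself, against 69.3% of other genes. A replicate 1 summit lay within 200 bp for 29 members (87.9%), against 90.4% of other genes. A replicate 2 summit lay that near for 16 members (48.5%), against 70.6%, and in both replicates for 13 (39.4%), against 62.9%. Taken from the other side, the highest replicate 2 region had a pooled summit within 200 bp for 22 of 34 members (64.7%), against 71.1% of other genes, since several members had a lower pooled region there. A region below the cap of a list cannot be seen in it.

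**Figure D5:**
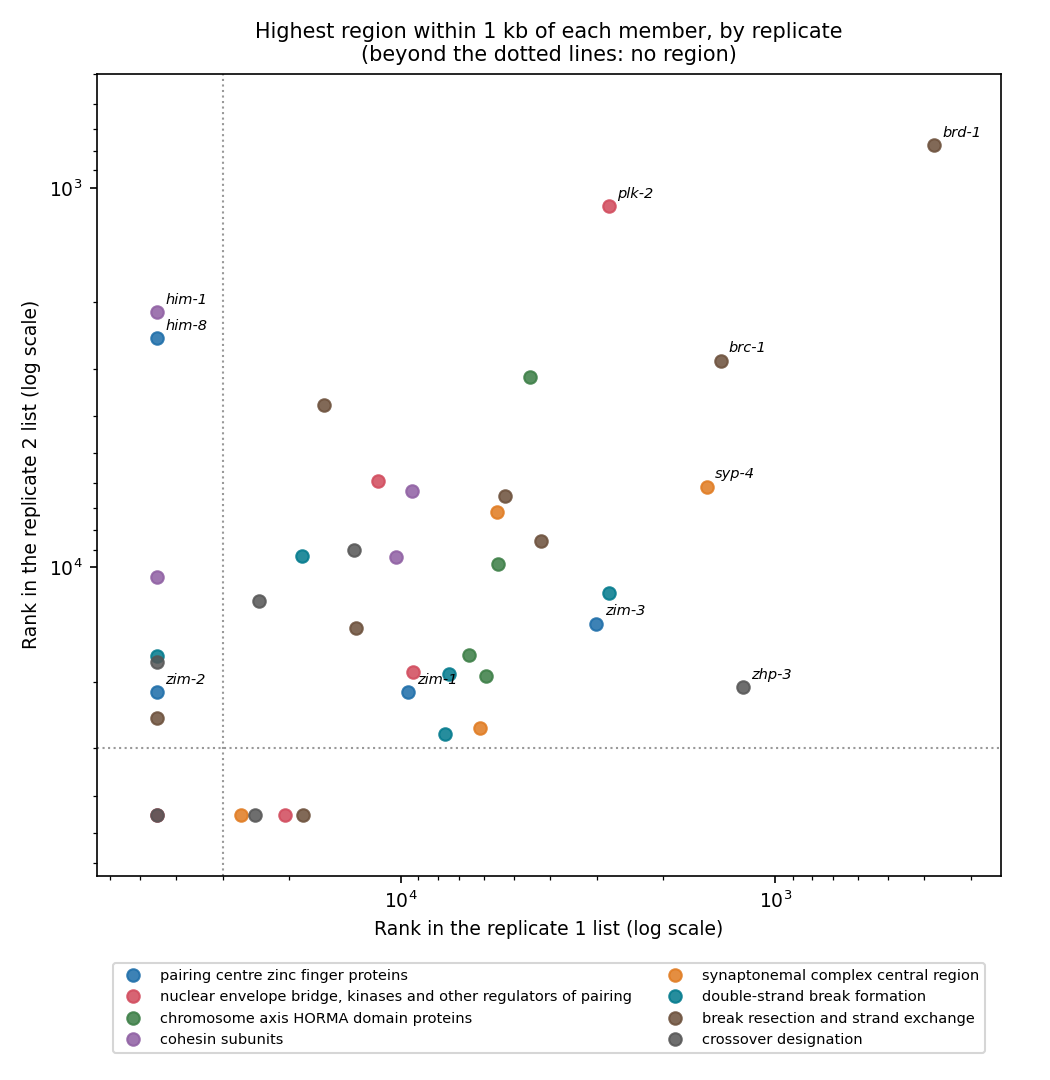
Rank of the highest region within 1 kb of each member in replicate 1 (horizontal) and replicate 2 (vertical), both on log scales with the highest regions toward the upper right, coloured by role; points beyond the dotted lines stand for no region in that list. brd-1 is at the upper right (ranks 377 and 772), zhp-3 is high in replicate 1 alone (ranks 1222 and 20724), and him-1 and him-8 are high in replicate 2 alone (ranks 2123 and 2486).

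Small RNA genes adjoined the highest member, brd-1, and the third highest, syp-4, and neither brc-1 nor zim-3. A tRNA, snoRNA or snRNA gene lay within 1 kb of 4 members, brd-1, syp-4, him-5 and zhp-3, of which 1 had an IDR peak and 3 had a pooled region, with a median of 127.9. The other 36 members had no IDR peak and a median of 75.4. Among other protein-coding genes the same split gave an IDR peak near 38.1% of the 944 with such a gene within 1 kb (median 125.5) and 3.76% of the 18989 without (median 76.8). The summit itself was within 500 bp of a small RNA gene for 3 members (9.09%), against 3.98% of other genes with a region. Over whole lists this applied to 2.82% of pooled summits and 33.3% of IDR summits. Whether the small RNA genes set the height at these members was not tested.

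For scale, 53 other meiotic genes scored in the same way included 51 with a pooled region (96.2%) and 5 with an IDR peak (9.43%). The shares were 71.1% and 5.39% of other protein-coding genes, and 82.5% and 2.5% of members. The 53 genes had a median highest signal of 85.8, and they are longer still (median 3410 bp). The 5 with an IDR peak were hpr-9, a checkpoint clamp subunit, at 207.3, wapl-1, a cohesin release factor, at 183.0, scc-2, a cohesin loader, at 172.8, rpa-2, a single-strand binding protein, at 172.3, and ercc-1, a nuclease subunit, at 149.6. The hpr-9 summit was 14 bp from a tRNA gene, as at brd-1. The other summits were farther from any small RNA gene, by 1607 bp at wapl-1, 35581 bp at scc-2, 122917 bp at rpa-2 and 42015 bp at ercc-1. Among the 77 ribosomal protein genes, taken as a list with high signal, 75 had a pooled region (97.4%) and 28 an IDR peak (36.4%), with a median of 107.2. A small RNA gene lay within 1 kb of 16 of the 77 (20.8%), against 4.74% of other protein-coding genes and 10% of members. In whole animals, strong binding in few nuclei and weak binding in many cannot be told apart, so low values here do not show how ZIM-3 is distributed in the germline.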

How the data were processed

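ZIM-3-GFP ChIP-seq lists of regions on assembly ce11 were used for the pooled reads, for biological replicates 1 and 2, and for the IDR-thresholded peaks. The signal of each region and the −log10 of its q-value are as the authors deposited them, and the summit is the deposited offset from the region start. The signal ranked regions within a list, and the −log10 values were not used for ranking. Per the deposited file descriptions a control library entered the calls, which was not used here. The sources used here do not name the aligner, peak caller or IDR threshold. No file gave read counts, so depth is unknown and no interval could be computed.

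Coordinates are 1-based. Genes, small RNA genes included, came from Ensembl release 115 (WBcel235). Sequences and the product names of small RNA genes came from RefSeq on the same assembly. rad-54 was read as rad-54.L. Summits within 1 kb of a gene were assigned to it, and one region could count for several genes. Full values were given for members with an IDR peak, the 15 highest pooled signals and the 4 pairing centre genes, and him-1 and zhp-3 were described further after their values were seen. The members and lists were chosen with earlier results of these data known. The scoring was tested on simulated regions, in Python 3.11.15 with pandas 2.3.3, numpy 2.4.6 and matplotlib 3.10.9. Alternatives covered the distance, the gene start, list size, small RNA genes, the nearest gene, replicate matching and each replicate left out.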

Additional observations from a re-analysis of the deposited data

How the results depend on the processing

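The counts of members with a pooled region stayed within 1.5 times of 33 under every alternative except the 10000 highest regions of each list, which left 17 members (42.5%) and 7479 other genes (37.52%). Without regions near small RNA genes 0 members had an IDR peak. In the other settings 1 member (2.5%) had one, while the other genes with one numbered 421 (2.11%) inside the gene body, 499 (2.50%) within 1 kb of the gene start and 710 (3.56%) with each region counted for its nearest gene alone, so that a lower share of members does not hold in the first of these and vanishes in the second. Members in all 3 lists numbered 16 (40%) within 1 kb of the start, against 31.7% of other genes, 9 (22.5%) in the 10000 highest regions, against 24.2%, and 13 (32.5%) where replicate summits had to lie within 200 bp, against 44.7%.

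The median signal of members was 71.9 inside the gene body, 63.4 within 1 kb of the start and 85.7 in the 10000 highest regions. The median of other genes was 74.4, 71.4 and 97.1 under these same settings, 77.0 within 500 bp, 80.8 within 2 kb, 77.1 without regions near small RNA genes and 75.4 for the nearest gene alone. The members' median lay below that of other genes in all but the last of these, where it was 75.5. Without replicate 1, 34 members had a region, and without replicate 2, 31. Medians were not recomputed without a replicate, because the scales of the lists differ. Leaving out rad-54.L moved no count by over 1.5 times. Of 112 values tried for the named members, 10 left no region, 97 lay within 1.5 times of the reported value, and all 102 lay between 0.553 and 1.13 times it.

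No paired analysis was possible because there is 1 group. Depth is unknown, and the lists are capped at 30000 regions, so a missing region is not absence of binding.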

Other observations

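A 12-mer was picked from the data as the one near most IDR summits in the first 1 Mb of chromosome IV. It lay within 50 bp of 12 of the 27 summits there and tied with another 12-mer. It has 1002 copies in the genome. A copy lay within 1 kb of 0 of the 40 members and of 119 of the 19933 other protein-coding genes (0.597%), too small a share for 40 genes to show a difference.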
